A study of Homo sapiens with 12 samples.

Results

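CYP1B1 and the aryl hydrocarbon receptor axis were followed in KP4 pancreatic cancer cells as 6 genes, AHR, AHRR, ARNT, CYP1A1, CYP1B1 and TIPARP, out of 36601 genes in the deposited table. They were chosen by name from the receptor, its partner, its repressor and its best known targets, with earlier results on these libraries already known, in which CYP1B1 stood out in the response to FK866 and in the difference between that response without and with metformin. Their levels and fold changes are therefore given as a description, without p-values. Where a member met the thresholds set for all genes, this is stated to place it among them, and it is no independent test of a gene picked for these values. All 6 genes were among the 15376 tested genes, whose normalized counts averaged 10 or more over the 12 libraries.

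AHR is a ligand-activated transcription factor that waits in the cytosol in a complex with chaperones. Once bound by a ligand, such as dioxin, other polycyclic compounds or the tryptophan metabolite kynurenine, it moves to the nucleus, pairs with ARNT and binds DNA at dioxin-responsive elements, whose core reads GCGTG. CYP1A1 and CYP1B1, cytochrome P450 enzymes that oxidize polycyclic hydrocarbons and oestrogens, are among its classic targets. AHRR and TIPARP are targets that feed back on the pathway, AHRR by competing with AHR for ARNT and TIPARP, a mono-ADP-ribosyltransferase that uses NAD as its substrate, by modifying AHR.

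KP4 is an established human cell line, labelled as a pancreatic ductal cell carcinoma with the genotype WT. Its cells received for 24 h either the vehicle DMSO, metformin at 10 mM (Met), an inhibitor of mitochondrial complex I, FK866 at 5 nM (FK), which blocks NAMPT and with it the salvage of NAD from nicotinamide, or both drugs at these doses (Met+FK). Each treatment had 3 libraries, so all values come from 1 cell line at 1 dose of each drug and 1 time. The labels number the libraries of each treatment but do not say whether they come from separate cultures, so every spread and p-value below measures the variation between these libraries only, which may be technical.

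The libraries held between 30667735 and 41052203 counted read pairs. Of 8 markers of ductal epithelium, 6 passed the filter, among them KRT8, KRT18 and SOX9. Their summed level was 25301 to 26242 normalized counts in DMSO, 19349 to 22853 in FK, 16465 to 19625 in Met and 16172 to 19611 in Met+FK, and KRT18 and KRT19 fell in Met and in Met+FK against DMSO. This moved with all 3 treatments, and its part in the results was not tested. Of the other ductal markers, EPCAM had means between 7.21 and 12 normalized counts and CFTR was at 0 in every library. None of the acinar or endocrine markers passed the filter. The summed level of the immune list was 108.7 to 315.3 normalized counts, nearly all of it PTPRC, and that of the endothelial list 21.9 to 56.3. PTPRC fell in Met+FK against DMSO (log2 fold change −0.86) and VWF, an endothelial marker, in Met against DMSO (−0.93). The part of both in the results was not tested. Of 6 fibroblast markers, DCN was at 0, COL1A2 and LUM had means under 1, and the summed level of the list ranged from 169.5 to 255.8 in DMSO, from 86.0 to 119.7 in Met, from 267.1 to 345.9 in FK and from 94.1 to 131.0 in Met+FK, with COL1A1 the largest part in each treatment. For each library, the log2 deviation of every gene from its mean over the 12 libraries was set against GC content. The slope, relative to the other libraries and per 10 percentage points, averaged 0.140 over the DMSO libraries (SD 0.0842). Over the FK libraries it averaged −0.0890 (SD 0.136), and it was lowest, at −0.245, in FK replicate 2. AHR and TIPARP, each with a GC content of 40.8%, and CYP1B1 with 44%, lie below the median of 48.5% of the genes tested. The fold changes are therefore also given after correction for this trend, in which each library's dependence on the GC content and length of transcripts was taken out. In bulk RNA, a change in the number of cells that express a gene and a change in its RNA per cell cannot be told apart.

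In what follows, a DEG is a gene that changed more than 1.5-fold and whose limma-trend p-value, adjusted over all tested genes, was below 0.05, with 1.5-fold equal to 0.585 on the log2 scale. Fold changes are on the scale of log2(normalized count + 1), with their standard error (SE), and come out too small for genes with low counts.

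Among the 6 genes, TIPARP was the most abundant per length of its exons, with 940.4 ± 130.0 (SD, n = 3) normalized counts per kb in DMSO. AHR followed with 342.1 ± 15.3 (SD, n = 3) and ARNT with 281.2 ± 7.36 (SD, n = 3). CYP1A1 stood at 94.6 ± 15.2 (SD, n = 3), CYP1B1 at 47.3 ± 5.52 (SD, n = 3) and AHRR at 9.87 ± 1.13 (SD, n = 3) normalized counts per kb in DMSO. Each neighbouring pair in this order was further apart than the SDs of both genes, but per kb of the longest transcript AHR (395.8) and ARNT (385.0) were not. In FK the order of the 6 genes was the same, whereas in Met CYP1B1 (77.4 ± 2.97 normalized counts per kb) stood above CYP1A1 (68.1 ± 5.94), and in Met+FK both lay within their spread, at 79.8 ± 8.51 for CYP1B1 and 80.4 ± 15.6 for CYP1A1 (SD, n = 3). The change of order in Met depends on the length used. Per kb of the longest transcript, CYP1B1 (89.3) and CYP1A1 (87.7) lay close together there.

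**Figure D1:**
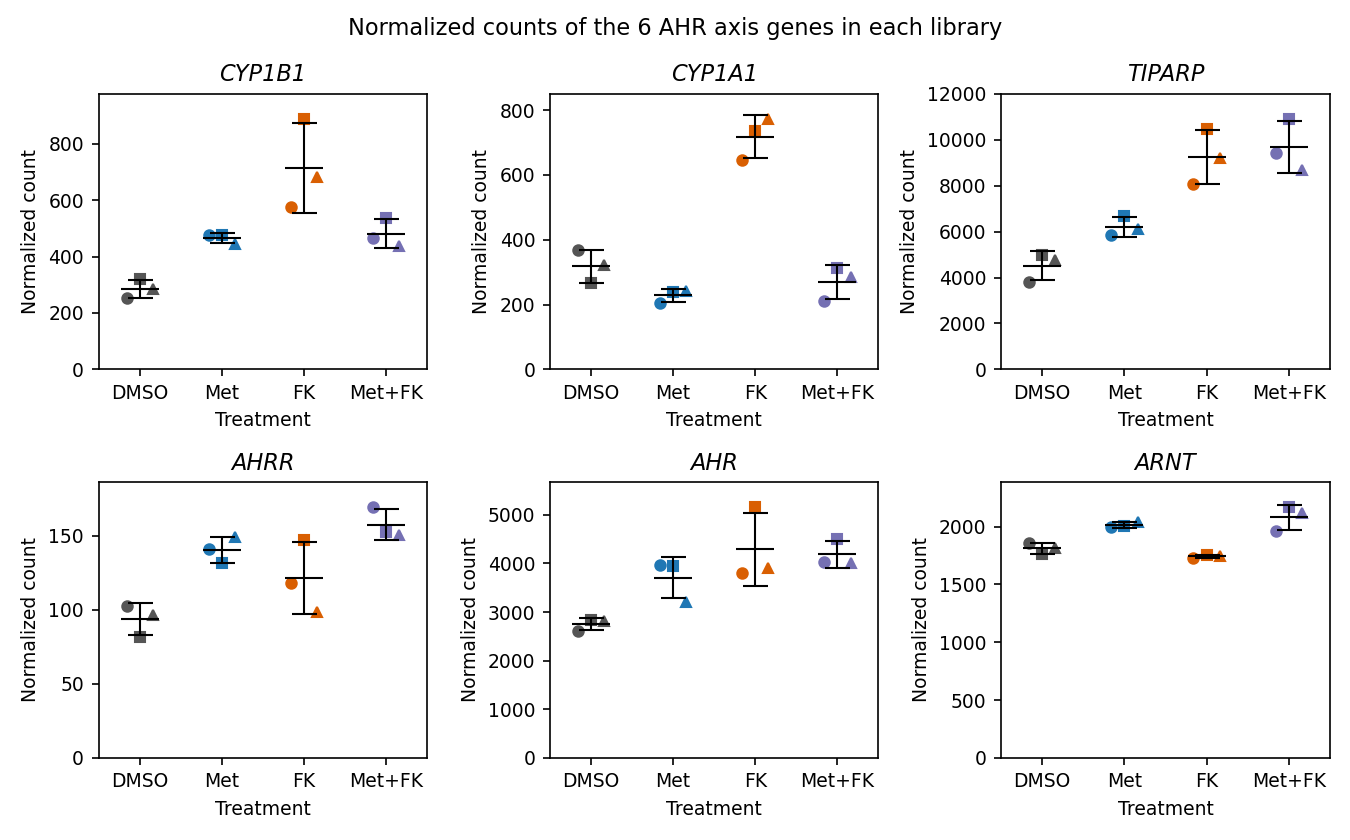
Normalized counts (y axis, from 0) of the 6 genes in the 4 treatments (x axis), with 1 symbol per library (circle, replicate 1, square, replicate 2, triangle, replicate 3) and bars for the mean and SD of 3 libraries. CYP1B1 and CYP1A1 were highest in FK, TIPARP was high in FK and in Met+FK, and ARNT stayed between 1729 and 2170 in all 12 libraries.

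CYP1B1 rose in FK to more than its level in any other treatment. The gene, ENSG00000138061, lies on the minus strand of chromosome 2 (hg38, chr2:38066973-38109902). The 3 DMSO libraries held 252.7, 319.2 and 283.4 normalized counts of CYP1B1, and the 3 FK libraries 574.8, 889.1 and 680.7. All FK libraries were above all libraries of the other treatments, with replicate 2 the highest. The 3 Met libraries held 476.6, 476.2 and 445.4 and the 3 Met+FK libraries 467.2, 537.0 and 437.1 normalized counts, so that both of these treatments lay between DMSO and FK and overlapped each other. The order of the means was thus DMSO (285.1 ± 33.3, SD, n = 3), Met (466.1 ± 17.9) and Met+FK (480.5 ± 51.3), which did not differ beyond their spread, and FK (714.9 ± 160).

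The log2 fold change of CYP1B1 against DMSO was 1.31 (SE 0.14) in FK, 0.71 (SE 0.14) in Met and 0.75 (SE 0.14) in Met+FK, and CYP1B1 was a DEG in each of these 3 comparisons, which share the DMSO libraries. With each library of the comparison left out in turn, the fold change in FK lay between 1.14, without FK replicate 2, and 1.45. After the GC and length trend was removed it was 1.12 (SE 0.10) in FK, still a DEG, while the values of 0.52 (SE 0.10) in Met and 0.58 (SE 0.10) in Met+FK fell short of the fold threshold. The summed level of the fibroblast markers was also higher in FK than in DMSO, through COL1A1, which rose from 145.2 to 273.7 normalized counts (log2 fold change 0.91, SE 0.19, a call lost without DMSO replicate 1 or FK replicate 2), while COL3A1 (−0.47, SE 0.41) and PDGFRB (−0.34, SE 0.35) had values below 0. In Met, CYP1B1 was higher and that sum lower than in DMSO. The part of the fibroblast markers in the CYP1B1 values was not tested. The table places 3 other genes over CYP1B1. The antisense gene CYP1B1-AS1 had 18.4, 18.8, 13.6 and 19.3 normalized counts on average in DMSO, Met, FK and Met+FK, RMDN2, which overlaps by 170 bases, had 69.3, 91.7, 75.9 and 77.3, and RMDN2-AS1 had no reads. The strand setting of the counting is not given in the sources used here, so reads of overlapping genes cannot be told apart.

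CYP1A1, the related P450 that is the usual readout of AHR activation, rose with FK866 and, unlike CYP1B1, did not rise with metformin. The gene, ENSG00000140465, lies on the minus strand of chromosome 15 (chr15:74719542-74725536). It had 367.0, 265.0 and 322.2 normalized counts in the DMSO libraries and 645.6, 734.3 and 773.7 in the FK libraries. The Met libraries held 205.9, 238.1 and 242.5, all below DMSO, and the Met+FK libraries 212.2, 313.8 and 284.9, which overlapped both DMSO and Met. The log2 fold change of CYP1A1 against DMSO was 1.18 (SE 0.15) in FK, a DEG, −0.46 (SE 0.15) in Met and −0.24 (SE 0.15) in Met+FK, neither of them a DEG. Without DMSO replicate 2 the value in Met was −0.59 (SE 0.16) and CYP1A1 was called. Without the GC and length trend the value in FK was 1.30 (SE 0.13).

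TIPARP rose against DMSO both in FK and in Met+FK. The gene, ENSG00000163659, lies on the plus strand of chromosome 3 (chr3:156673235-156706770). Its normalized counts were 3806, 4991 and 4744 in DMSO, 5844, 6687 and 6095 in Met, 8091, 10476 and 9211 in FK, and 9417, 10928 and 8707 in Met+FK. The libraries of Met were all above those of DMSO and below those of FK and Met+FK, which overlapped. The log2 fold change against DMSO was 1.04 (SE 0.12) in FK and 1.1 (SE 0.12) in Met+FK, both DEGs, and 0.47 (SE 0.12) in Met. After the GC and length trend was removed, TIPARP remained a DEG in FK (0.76, SE 0.076) and in Met+FK (0.91, SE 0.076). The antisense gene TIPARP-AS1, which shares 1212 bases with TIPARP, had means of 33.1, 48.4, 42.0 and 49.2 normalized counts in DMSO, Met, FK and Met+FK.

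AHRR, the repressor of the receptor, was the least abundant of the 6 genes. The gene, ENSG00000063438, lies on the plus strand of chromosome 5 (chr5:321759-435110). It had 102.7, 81.8 and 96.2 normalized counts in DMSO and 118.0, 146.9 and 98.7 in FK, so that these groups overlapped. In Met it had 141.1, 131.3 and 149.1 and in Met+FK 169.3, 152.4 and 150.2, all above DMSO. AHRR was a DEG in Met+FK against DMSO (0.75, SE 0.15) and, just past the fold threshold, in Met against DMSO (0.59, SE 0.15), where the call was lost without DMSO replicate 2, Met replicate 1 or Met replicate 3.

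AHR itself was higher in all 3 treatments than in DMSO. The gene, ENSG00000106546, lies on the plus strand of chromosome 7 (chr7:16916359-17346152). Its normalized counts were 2612, 2830 and 2820 in DMSO, 3966, 3946 and 3215 in Met, 3812, 5161 and 3910 in FK, and 4037, 4514 and 4004 in Met+FK. Every treated library was above every DMSO library, and FK replicate 2 was the highest of all. The log2 fold change was 0.63 (SE 0.11) in FK and 0.60 (SE 0.11) in Met+FK, both DEGs, and 0.42 (SE 0.11) in Met. After the GC and length trend was removed these values were 0.31, 0.36 and 0.13 (SE 0.056 each) and AHR was a DEG in none of the 3 comparisons. The call in FK was also lost without FK replicate 2 (0.49, SE 0.094) or DMSO replicate 1, and that in Met+FK without DMSO replicate 1 or Met+FK replicate 2. The antisense gene AC073332.1, which lies over a large part of AHR, had means of 22.3, 40.3, 19.1 and 38.0 normalized counts in DMSO, Met, FK and Met+FK.

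ARNT, the partner of AHR, had the smallest log2 fold change of the 6 genes in each treatment against DMSO. The gene, ENSG00000143437, lies on the minus strand of chromosome 1 (chr1:150809713-150876708). It had 1861, 1767 and 1812 normalized counts in DMSO, 2000, 2004 and 2043 in Met, 1729, 1759 and 1743 in FK, and 1962, 2170 and 2115 in Met+FK. Its log2 fold changes lay between −0.056 (SE 0.068) in FK against DMSO and 0.25 (SE 0.068) in Met+FK against FK, and it was a DEG in no comparison.

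Counted over the 6 genes, 4 were DEGs in FK against DMSO, all higher, where 3.49% of the 15376 genes tested were DEGs. In Met against DMSO 2 of the 6 genes were DEGs, both higher, beside 23.0% of all genes, and in Met+FK against DMSO 4 were, all higher, beside 25.1%. Since the members were picked with these results known, the counts are not set against the percentages as evidence. The median log2 fold change of the 6 genes was 0.83 in FK, 0.45 in Met and 0.68 in Met+FK, whereas that of all genes tested was −0.016, 0.012 and 0.014. Without the GC and length trend 3 of the 6 genes were DEGs in FK, beside 1.31% of all genes, 1 in Met, beside 20%, and 2 in Met+FK, beside 23.3%.

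**Figure D2:**
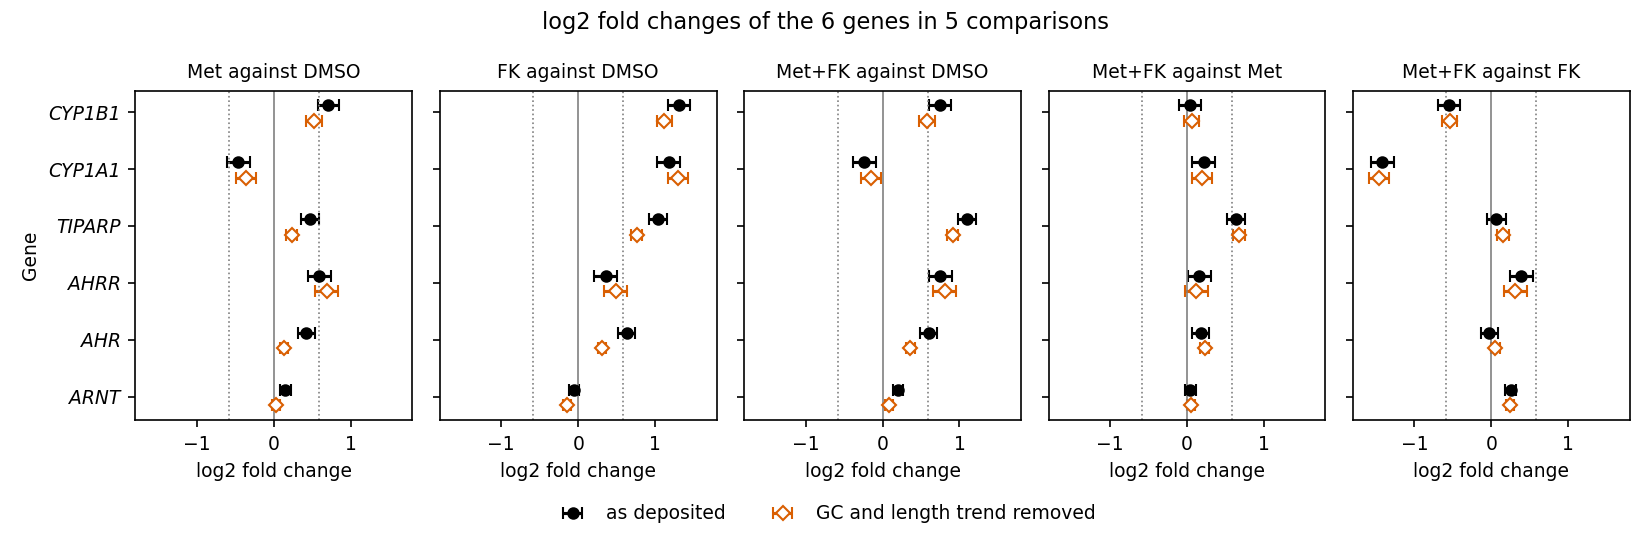
log2 fold changes (x axis) of the 6 genes (y axis) in 5 comparisons, with bars for the standard error, as deposited (filled circles) and corrected for the GC and length trend (open diamonds). Dotted lines mark a fold change of 1.5, and CYP1B1, CYP1A1 and TIPARP are past it in FK against DMSO in both versions.

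RefSeq promoter windows on GRCh38.p14 (250 bases before to 50 after the start) matched 5 of the 6 symbols, AHR, AHRR, ARNT, CYP1A1 and TIPARP, with 8 windows in all. They were searched on both strands for the core GCGTG, which reads CACGC on the opposite strand, and for the longer TNGCGTG, which contains the core. The core was found in 5 of the 8 windows and in 36.5% of 35116 windows of all genes, and the longer motif in 1 of the 8 and in 5.50% of all. In the 1000 bases before the start, the core was found in 7 of the 8 regions and in 64.0% of all, and the longer motif in 5 of the 8 and in 16.7%. The first windows of CYP1A1, TIPARP and AHRR are shown because these are the target genes of the receptor with a window, and they differed in their values with FK866. Each is written 5′ to 3′ on the strand of its gene, from chr15:74725479-74725778 (minus), chr3:156674340-156674639 (plus) and chr5:321464-321763 (plus), with the core in capitals.
CYP1A1: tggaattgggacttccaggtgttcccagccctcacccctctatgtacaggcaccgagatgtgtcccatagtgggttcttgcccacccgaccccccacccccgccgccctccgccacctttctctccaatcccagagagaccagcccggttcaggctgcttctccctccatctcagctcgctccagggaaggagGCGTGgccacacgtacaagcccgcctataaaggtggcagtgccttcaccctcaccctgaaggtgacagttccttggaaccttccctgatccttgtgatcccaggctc
TIPARP: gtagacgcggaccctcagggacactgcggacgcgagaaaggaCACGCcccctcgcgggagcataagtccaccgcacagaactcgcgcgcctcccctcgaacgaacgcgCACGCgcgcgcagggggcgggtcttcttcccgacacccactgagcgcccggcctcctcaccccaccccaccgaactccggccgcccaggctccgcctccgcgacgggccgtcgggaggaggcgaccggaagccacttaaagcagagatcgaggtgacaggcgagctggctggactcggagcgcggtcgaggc
AHRR: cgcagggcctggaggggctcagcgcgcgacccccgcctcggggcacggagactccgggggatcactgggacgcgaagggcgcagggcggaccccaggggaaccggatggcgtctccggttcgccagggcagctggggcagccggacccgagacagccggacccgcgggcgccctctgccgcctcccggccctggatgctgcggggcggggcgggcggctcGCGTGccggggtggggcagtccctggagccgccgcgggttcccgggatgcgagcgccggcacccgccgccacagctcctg
CYP1A1 holds the core once in this window and 5 times in the 1000 bases before its start, 3 of them in the longer form. TIPARP holds it 2 times in the window shown, both on the opposite strand, and 6 times in the 1000 bases before that start, none in the longer form. Another TIPARP window (chr3:156676414-156676713) has 1 copy of the longer form in the 1000 bases before its start. AHRR, which was not a DEG with FK866 alone, holds the only copy of the longer motif among the 8 windows. A match is a description of the sequence and shows no binding.

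FK866 was also compared without and with metformin, that is FK against DMSO beside Met+FK against Met, which share no libraries. For CYP1B1 the log2 fold change was 1.31 (SE 0.14) without metformin and 0.039 (SE 0.14) with it. Taken by replicate number, the ratio of FK to DMSO was 2.27, 2.79 and 2.40, and that of Met+FK to Met 0.980, 1.13 and 0.981. CYP1A1 had a log2 fold change of 1.18 (SE 0.15) without and 0.22 (SE 0.15) with metformin, and ratios of 1.76, 2.77 and 2.40 against 1.03, 1.32 and 1.17. For both P450 genes the level was higher with FK866 in every numbered pair without metformin. With metformin the ratios of CYP1B1 lay on both sides of 1, and those of CYP1A1 were all above 1.

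TIPARP was higher with FK866 in every numbered pair in both settings. Its log2 fold change was 1.04 (SE 0.12) without and 0.64 (SE 0.12) with metformin, with ratios of 2.13, 2.10 and 1.94 against 1.61, 1.63 and 1.43, and every Met+FK library was above every Met library. Among the 6 genes none was a DEG in Met+FK against Met, where 0.0585% of all genes (9 genes, while 1051 had an unadjusted p below 0.05) were. TIPARP was a DEG there with the replicate number as a block, after the GC and length trend was removed (0.68, SE 0.076), in edgeR and in DESeq2. These settings called 0.0715% to 0.163% of all genes. TIPARP was not a DEG there whenever a Met or Met+FK library was dropped, nor with the other pseudocounts, filters or scalings. AHR had values of 0.63 (SE 0.11) without and 0.18 (SE 0.11) with metformin, which became 0.31 and 0.23 (SE 0.056 each) without the GC and length trend.

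The difference between the effects of FK866 with and without metformin, the interaction, was negative for 5 of the 6 genes. It was −1.27 (SE 0.20) for CYP1B1, −0.96 (SE 0.21) for CYP1A1, −0.45 (SE 0.16) for AHR, −0.40 (SE 0.16) for TIPARP, −0.20 (SE 0.21) for AHRR and 0.10 (SE 0.10) for ARNT on the log2 scale. CYP1B1 was 1 of the 9 genes, 0.0585% of those tested, called for the interaction in limma-trend (adjusted p-value below 0.05, with no fold threshold), while 4695 were below 0.05 before adjustment. As CYP1B1 was picked for standing out in this difference on the same libraries, the call restates that observation. Of the 12 fits that each left out a library, only those without FK replicate 1 (−1.41) or FK replicate 2 (−1.1) called CYP1B1, while the value stayed between these bounds in all 12. With the replicate number as a block, which called 32.0% of all genes, AHR, CYP1A1, CYP1B1 and TIPARP were called, and after the GC and length trend was removed, with 0.598% of all genes called, CYP1B1 (−1.06, SE 0.14) and CYP1A1 (−1.1, SE 0.19). CYP1A1 (−1.03, SE 0.23) and AHR (−0.53, SE 0.16) were also called without FK replicate 1, where 1845 of the 15376 genes were called. After the correction the interaction of AHR was −0.082 (SE 0.079) and that of TIPARP −0.081 (SE 0.11).

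**Figure D3:**
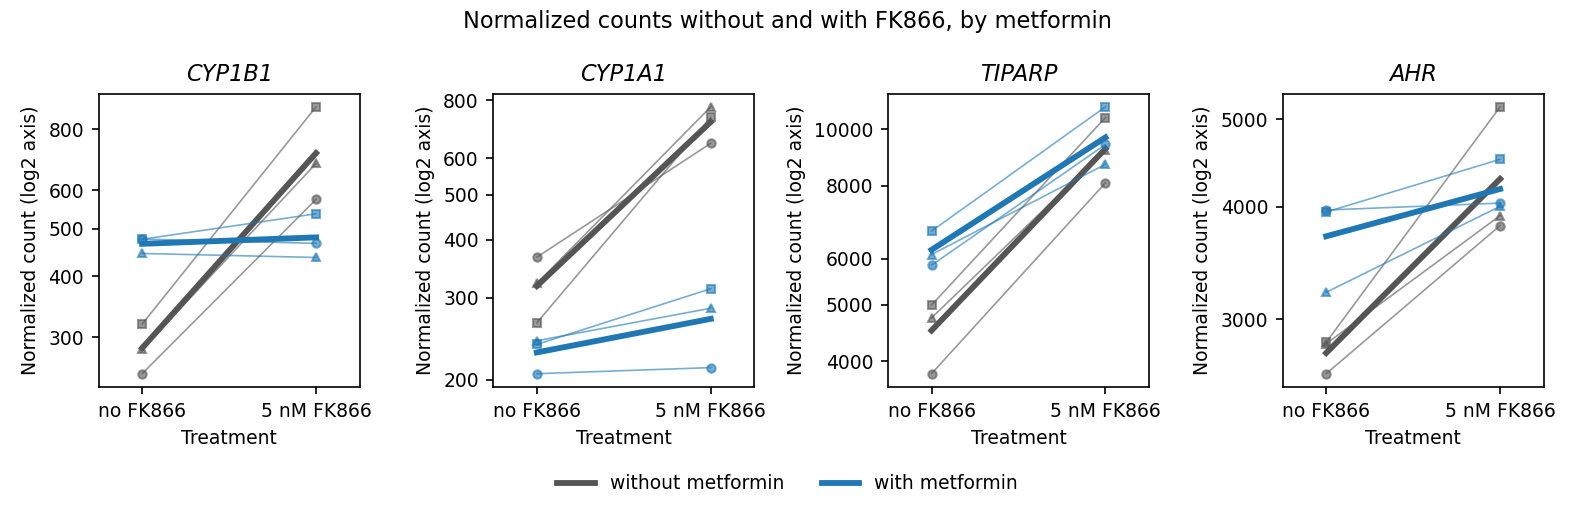
Normalized counts (y axis, log2 scale) of CYP1B1, CYP1A1, TIPARP and AHR without and with 5 nM FK866 (x axis), in cells without metformin (grey) and with it (blue). Thin lines join libraries of the same replicate number and thick lines join the means, which climb in all 4 genes without metformin and, for CYP1B1, run from 466.1 to 480.5 with it.

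Seen from the other side, metformin was added to cells that received FK866 (Met+FK against FK). CYP1A1 fell by 1.42 on the log2 scale (SE 0.15), to 270.3 from 717.9 normalized counts, and was the only DEG among the 6 genes, beside 18.6% of all genes. CYP1B1 had a log2 fold change of −0.55 (SE 0.14), with every Met+FK library below every FK library, which is short of the fold threshold. Without FK replicate 1 or Met+FK replicate 2 it was called, at −0.70 and −0.64. TIPARP (0.066, SE 0.12) and AHR (−0.025, SE 0.11) overlapped between both treatments.

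Outside the 6 genes, lists of the pathway were counted in the same fits. The lists were written with earlier results of these data known, so their counts are not set against the shares over all genes as evidence. DEGs in either direction made up 23.0% of all genes in Met against DMSO and 3.49% in FK against DMSO. They made up 25.1% in Met+FK against DMSO and 18.6% in Met+FK against FK. Of 5 genes of the chaperone complex that holds AHR in the cytosol, HSP90AB1 fell in Met against DMSO (log2 fold change −0.84, SE 0.057, limma-trend adjusted p = 5.96e-08). HSP90AA1 rose in FK, just past the thresholds (0.60, SE 0.18, limma-trend adjusted p = 0.0379), a call that was lost after the GC and length trend was removed, in edgeR and in DESeq2, and without DMSO replicate 1, DMSO replicate 3 or FK replicate 2, and PTGES3 and SRC were DEGs in no comparison. Both HSP90 genes fell in Met+FK against FK, at −0.68 and −0.91.

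Of 13 other bHLH-PAS factors, the family of AHR and ARNT, 10 could be tested. With metformin NPAS2 (0.81, SE 0.088), CLOCK (0.70, SE 0.19), NPAS3 (0.62, SE 0.22) and EPAS1 (0.59, SE 0.085) rose and none fell, beside 23.0% of all genes. NPAS2 and EPAS1 were still DEGs after the GC and length trend was removed, and 2 DEGs were left without DMSO replicate 1 or Met replicate 2. None of the 10 was a DEG in FK against DMSO (1 was in edgeR and in DESeq2), beside 3.49% of all genes, and CLOCK reached 0.58 (SE 0.19) there. Their median was 0.42 in Met and 0.11 in FK. Of 12 coregulators of the receptor, NCOA1, a coactivator, rose in Met (0.60, SE 0.085, not called after the GC and length trend was removed) and none was a DEG in FK, with medians of 0.20 and 0.14. Of 5 subunits of ubiquitin ligases that act on AHR, RBX1 fell in Met (−0.76, SE 0.080), again none was a DEG in FK, and the medians were −0.48 and −0.18.

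Of 8 classic xenobiotic genes beside CYP1A1 and CYP1B1 only 3 could be tested, and UGT1A1 and GSTA1 were at 0 in all libraries. NQO1, a quinone reductase, had a log2 fold change of 0.13 (SE 0.066) in FK and 0.21 (SE 0.066) in Met, ALDH3A1 of −0.48 (SE 0.18) in FK and 0.15 (SE 0.18) in Met, and CYP2S1 of −0.30 (SE 0.14) in FK and 0.32 (SE 0.14) in Met. None of these was a DEG, beside 3.49% of all genes in FK and 23.0% in Met, and CYP2S1 rose in Met+FK against FK (0.78, SE 0.14).

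Among 15 other genes commonly reported as AHR targets, 11 could be tested. Of these, 9 were DEGs in FK against DMSO, all higher, beside 3.49% of all genes that were DEGs in either direction. The list was written with earlier results of these data known, so this count is not set against that percentage as evidence. The median log2 fold change of the 11 genes was 0.77. The 4 largest belonged to PTGS2, the inducible cyclooxygenase (2.0, SE 0.15), EREG, a ligand of the EGF receptor (1.71, SE 0.13), PLA2G4A, a phospholipase that releases arachidonic acid (1.08, SE 0.21), and AREG, another ligand of the EGF receptor (1.0, SE 0.11). IL1B, STC2, ALDH1A3, HES1 and NFE2L2 were the others, SLC7A5 (0.0032, SE 0.077) and MMP1 (0.48, SE 0.12) were not DEGs, and 8 of the 9, all but NFE2L2, remained DEGs after the GC and length trend was removed. With each library left out, the number lay between 7 (without DMSO replicate 1) and 9. Many of these genes respond to other pathways as well, so that their counts are not a measure of AHR activity.

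In Met against DMSO 5 of the 11 genes rose, beside 23.0% of all genes that were DEGs in either direction. They were AREG (1.51, SE 0.11), STC2 (1.8, SE 0.10), PTGS2 (1.37, SE 0.15), NFE2L2 (0.72, SE 0.17) and SLC7A5 (0.64, SE 0.077). NFE2L2 was not called after the GC and length trend was removed, and the number was 4 without Met replicate 3. In Met+FK against DMSO 6 rose, beside 25.1%. In Met+FK against Met HES1 alone was a DEG (0.61, SE 0.084, limma-trend adjusted p = 0.0139), although this call was lost without Met replicate 1, Met replicate 2, Met+FK replicate 2 or Met+FK replicate 3. PTGS2 (0.70, SE 0.15) was a DEG there as well with the replicate number as a block, after the GC and length trend was removed and in DESeq2. EREG was high in FK alone. Its normalized counts were 3136, 3071 and 2991 in DMSO, 2914, 3045 and 2532 in Met, 9133, 13002 and 8508 in FK, and 3766, 3490 and 3151 in Met+FK. Its FK libraries were thus all above the other 9. For PTGS2 the normalized counts were 343.9, 342.9 and 371.4 in DMSO, 944.8, 1020 and 794.4 in Met, 1269, 1842 and 1200 in FK, and 1569, 1683 and 1257 in Met+FK, so that every treated library was above DMSO. In Met+FK against FK 4 of the 11 genes fell, EREG, PLA2G4A, ALDH1A3 and IL1B, and 3 rose, STC2, AREG and SLC7A5, beside 18.6% of all genes.

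**Figure D4:**
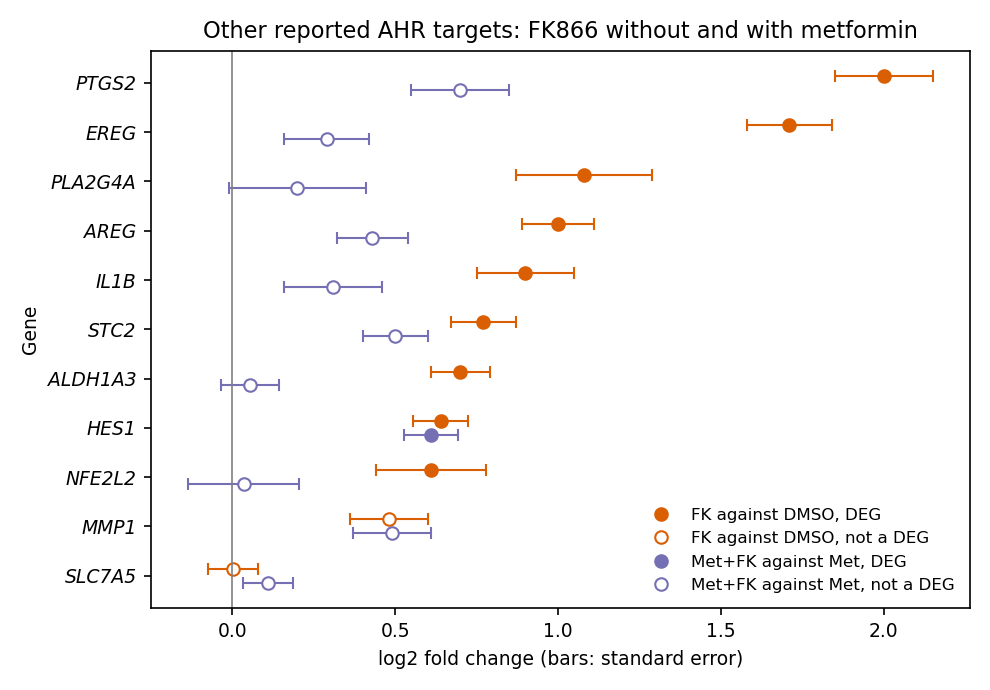
log2 fold changes (x axis, bars for the standard error) of 11 other reported AHR targets (y axis) for FK against DMSO (orange) and Met+FK against Met (purple), filled where the gene was a DEG. In FK against DMSO 9 genes are filled, led by PTGS2 (2.0) and EREG (1.71), and in Met+FK against Met only HES1 is (0.61).

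Of 13 enzymes that make kynurenine or lead from tryptophan to NAD, 8 could be tested. TDO2, which opens this route, had means between 15.7 and 23.7 normalized counts, and IDO1 was below the filter, with means between 5.84 and 13.7. None of the 8 was a DEG in Met or in FK, beside 23.0% and 3.49% of all genes. For FK, 1 was called in edgeR, with the replicate block and without DMSO replicate 2 or FK replicate 1. These fits called 3.69% to 7.82% of all genes. KMO, the kynurenine hydroxylase, had 13.6 ± 2.50 normalized counts in DMSO, 25.8 ± 0.686 in FK and 7.04 ± 3.37 in Met+FK (SD, n = 3), and fell in Met+FK against DMSO (−0.93, SE 0.31) and against FK (−1.82, SE 0.31). IL4I1, which makes AHR ligands from tryptophan, rose in Met+FK against DMSO (0.78, SE 0.27), from 10.1 ± 1.73 to 18 ± 2.43 normalized counts (SD, n = 3). The calls against DMSO rest on few counts. Both were lost in DESeq2, that of KMO also without DMSO replicate 3 or Met+FK replicate 2, and that of IL4I1 without DMSO replicate 1, Met+FK replicate 1 or Met+FK replicate 3.

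Among all P450 genes, CYP1B1 and CYP1A1 were the 2 DEGs in FK against DMSO, out of 14 tested, beside 3.49% of all genes. Both are members picked with these results known, so this count restates that choice. The other 9 P450 genes that averaged 100 or more had log2 fold changes between −0.30 (CYP2S1) and 0.25 (CYP20A1) there. The table lists 55 P450 genes, of which 11 averaged 100 or more normalized counts. Per kb of exon, CYP1B1 had rank 9 of these 11 in DMSO, 6 in Met, 3 in FK and 7 in Met+FK, and CYP1A1 rank 3 in DMSO, 7 in Met, 2 in FK and 6 in Met+FK. These ranks depend on the length used. Per kb of the longest transcript, CYP2R1 (128.8) stood above CYP1A1 (122.0) in DMSO, and CYP2R1 (144.9) above CYP1B1 (137.0) in FK. In Met against DMSO CYP1B1 rose and CYP27C1 fell (−0.59), and in Met+FK against FK CYP46A1 and CYP2S1 rose while CYP1A1 and CYP27C1 fell. Of 8 tested genes that supply electrons to P450 enzymes or process their products, none was a DEG in FK, and CYB5A, cytochrome b5, fell in Met (−0.69, SE 0.090). The P450 reductase POR had −0.19 (SE 0.093) in FK and −0.33 (SE 0.093) in Met. Of 7 factors reported to act on CYP1B1 apart from AHR, ESR1, NR5A1 and NR1I3 were below the filter. PPARA rose in Met (0.71, SE 0.11, not called after the GC and length trend was removed) and SP1, CREB1 and MYC had values between −0.14 and 0.43 in FK, none of them a DEG. In Met+FK against DMSO MYC rose as well (0.75, SE 0.072).

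Over the 12 libraries, CYP1B1 was closest to AHR and TIPARP among the 6 genes. Pearson's r between log2 levels was 0.90 for CYP1B1 and AHR and 0.85 for CYP1B1 and TIPARP, and still 0.85 and 0.88 once the mean of each treatment was subtracted. For CYP1B1 and CYP1A1 it was 0.54, and 0.0027 within treatments. ARNT and CYP1A1 went from −0.68 to 0.92 within treatments. These are descriptions over 12 points that share their scaling, their depth and the GC slope of each library, and AHR, TIPARP and CYP1B1 are all of low GC content.

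Among the 11520 genes that averaged 100 or more, the 5 most like CYP1B1 over the 12 libraries were SLC5A3, an inositol transporter (r = 0.97), ERCC6, a DNA repair factor (r = 0.96), UBE4A, a ubiquitin ligase (r = 0.95), LRP12, a membrane receptor (r = 0.95), and NRDC, a metalloprotease (r = 0.95). By Spearman's rho, ERCC6 (0.80) had only rank 325 of these genes. All have a GC content between 38.3% and 44.9%. SLC5A3 had means of 3396 ± 264 normalized counts in DMSO, 4819 ± 308 in Met, 8001 ± 1560 in FK and 5364 ± 368 in Met+FK (SD, n = 3), the same order as CYP1B1. The 3 genes most opposite to CYP1B1 were MPV17, a protein of the inner mitochondrial membrane (r = −0.98), FJX1 (r = −0.97) and AMOTL2 (r = −0.97), with a GC content between 52.9% and 64.0%. The 3 most like TIPARP were NRG1, a growth factor of the EGF family (r = 0.99), PXK (r = 0.97) and HTR7, a serotonin receptor (r = 0.96).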

How the data were processed

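Total RNA of KP4 cells was sequenced as read pairs after depletion of ribosomal RNA, with 3 libraries in each of 4 treatments. Per the study's methods and the submitters' processing notes, the authors used cutadapt to trim the reads, STAR to align them to hg38 (GRCh38) and featureCounts to count read pairs per gene, and scaled the counts with the size factors of DESeq2. The deposited values are this signal, which is never negative. The annotation and strand setting of the counting are not given in the sources used here. Dividing each library by its smallest step recovered the read pairs, with 100% of the values whole within 0.01 reads. Positions are those of the table after 1 was added to each start, which made 83.6% of the genes found in GENCODE 44 the same in start and end (0.200% as deposited). No interval for counting error is given, because the spread between replicates includes it.

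The members, lists and tests were chosen with earlier results of these data known. The text names all 6 members, genes that overlap them, the DEGs of each list (at most the 4 largest for values), the P450 genes with a mean of at least 100 and the genes most like CYP1B1 and TIPARP. Other genes given as list members that were not DEGs were chosen after their values were seen. Some genes of the lists are not reported here. The test was limma-trend (limma 3.58.1, R 4.3.3) in which all 12 libraries entered 1 fit of log2(normalized count + 1) on treatment, adjusted with the Benjamini-Hochberg method over the 15376 genes. The interaction was called on the adjusted p-value alone. The test was also run on simulated counts, whose means, scaling and spread were taken from these libraries. The alternatives were pseudocounts of 0.1 and 10, other filters, libraries scaled to the same total or by TMM (edgeR 4.0.16), fits of only the libraries compared, a block for the replicate number, a loess trend (span 0.3) on GC content and length of the canonical transcript removed from each library, with and without the block, edgeR and DESeq2 (1.42.0) on the recovered read pairs, and each library left out in turn. Lengths per kb are those of all exons of a gene. Same-numbered libraries of DMSO and FK deviated together from their group means (correlations across genes of 0.252, 0.420 and 0.219), as did those of Met and Met+FK (0.171, 0.200 and 0.226). All of these are above 0.1, so calls of the 6 genes that the block changed are named. The calls of the text come from the fit without the block. Not every call of a list gene that the block changed is named. For the interaction it called 7 of the 11 tested other reported AHR targets, beside 32.0% of all genes, and the fit without it called 2. The block gives all 4 treatments the same replicate effect, and across metformin some correlations were lower. For replicates 1, 2 and 3 they were 0.0129, 0.328 and 0.248 for DMSO with Met. They were 0.051, 0.159 and 0.0186 for DMSO with Met+FK, and 0.0461, 0.235 and 0.142 for FK with Met+FK. After the GC and length trend was removed, those of Met and Met+FK were 0.157, 0.0963 and 0.0708, of which 2 lie under 0.1.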

Additional observations from a re-analysis of the deposited data

Results flagged for a closer look

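In the fit used for the calls of the text, the effect of FK866 differed between cells with and without metformin for 2 genes of the lists. This was by the test of the difference itself. The lists were written with earlier results of these data known, so these calls of EREG and PTGS2 are no independent tests. For EREG the interaction was −1.42 on the log2 scale (SE 0.18, limma-trend adjusted p = 0.0174), with FK866 going from 3066 ± 72.3 to 10214 ± 2430 normalized counts without metformin and from 2831 ± 266 to 3469 ± 308 with it (SD, n = 3). For PTGS2 it was −1.29 (SE 0.21, limma-trend adjusted p = 0.0407), with 352.7 ± 16.2 and 1437 ± 352 normalized counts without metformin and 919.6 ± 115 and 1503 ± 221 with it (SD, n = 3). Both kept an adjusted p-value under 0.05 after the GC and length trend was removed. Of the 11 tested genes of their list, 3 were called then, beside 0.598% of all genes. In DESeq2 5 were, beside 4.34%, and with the replicate block 7 were, beside 32.0%. MYC, of another list, was also called after the GC and length trend was removed. Without DMSO replicate 1, DMSO replicate 3, Met replicate 1, Met replicate 2, Met+FK replicate 2 or Met+FK replicate 3, none of the 11 tested genes of their list was called. CYP1B1 moved in opposite directions with metformin, higher in every Met library than in every DMSO library (log2 fold change 0.71) and lower in every Met+FK library than in every FK library (−0.55). The difference between these values equals its interaction of −1.27 (SE 0.20). That call is no independent test, since the gene was chosen for this difference on the same libraries.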

How the results depend on the processing

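Of 904 alternative values, 809 moved by less than their limit (the SD between replicates for a fold change, whatever its call, and 1.5 times for a count), 95 moved by more, and 0 fold changes of a called gene changed sign. Members that were DEGs in Met against DMSO numbered 1 with a pseudocount of 10 and with the GC and length trend removed (with or without the replicate block), and 1 to 2 with each library left out. In Met+FK against DMSO they numbered 2 with the GC trend removed. In Met+FK against Met the number was 1 (TIPARP) with only the libraries compared, with the replicate block, with the GC trend removed, in edgeR and in DESeq2. In Met+FK against FK it was 1 to 2 with each library left out. For the interaction it was 0 with all genes above 0 tested, 4 with the replicate block, 2 with the GC trend removed and in DESeq2, and 0 to 3 with each library left out (3 without FK replicate 1). Over all genes, DEGs of FK against DMSO numbered 112 with only the libraries compared, 201 with the GC trend removed, 260 with the block added, and 94 (without DMSO replicate 1) to 1202 (without DMSO replicate 2). They numbered 1153 without FK replicate 1, 100 without FK replicate 2 and 181 without DMSO replicate 3. DEGs of Met+FK against Met numbered 18 with only the libraries compared, 25 with the replicate block, 21 with the GC trend removed, 35 with both, 20 in DESeq2 and 2 to 9 with each library left out. Genes with an interaction numbered 1 with all genes above 0 tested, 4914 with the replicate block, 92 with the GC trend removed, 1067 with both, 667 in DESeq2 and 0 to 1845 with each library left out (1845 without FK replicate 1). The causes were not tested. Scaling libraries to the same total moved the median of all genes in Met against DMSO from 0.012 to 0.13, and TIPARP was then a DEG there. The replicate block changed no other call of the 6 genes.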
